A study of Mus musculus with 25 samples.

Results

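Spinal motor neurons are made and told apart by a small set of transcription factors, most of them homeodomain proteins. The report follows 10 genes chosen by name for this role: Isl1, Isl2, Mnx1, Lhx1, Lhx3, Lhx4, Foxp1, Lmo4, Pou3f1 and Nos1. They are 10 of the 50559 genes in the deposited table, and all 10 were among the 21738 genes tested. Nos1, neuronal nitric oxide synthase, is an enzyme and not a transcription factor, and was included as a known marker of preganglionic neurons.

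The genes were read in mRNA bound to tagged ribosomes of cholinergic neurons from the spinal cord of male C57BL/6J mice aged 6 months. Controls were ChAT-Cre;RiboTag fx/+ mice, in which Cre expressed from the choline acetyltransferase locus switches on a hemagglutinin-tagged ribosomal protein. ChAT-BKO mice were ChAT-Cre;RiboTag fx/+;Bmal1 fx/fx, so they also lost the clock activator BMAL1 in the same cells. Cord was taken at Zeitgeber time (ZT) 8, in the light and rest phase, and at ZT20, in the dark and active phase. Each of the 4 conditions held 6 mice, giving 24 immunoprecipitated (IP) libraries, and 1 further library was pooled input RNA of whole cord. Because Cre follows choline acetyltransferase, the tagged cells include every cholinergic class of the cord, preganglionic neurons and cholinergic interneurons as well as motor neurons. In such bulk samples, fewer cells of a type and less RNA per cell cannot be told apart.

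In the embryo, Isl1, Lhx3 and the adaptor Ldb1 form a complex that starts the motor neuron programme, and Mnx1 holds the neighbouring interneuron programme off. Columns and pools are then set apart by further factors, with Lhx3 and Lhx4 in neurons to axial muscle, Lhx1 and Foxp1 in neurons to the limb and Pou3f1 in certain pools. Many of these genes fall as motor neurons mature, so their levels in adult cord are of interest on their own. BMAL1 acts with CLOCK at DNA sites called E-boxes.

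The IP libraries held 4035326 to 31685171 counts and the input 7396568. Arntl, which encodes BMAL1, fell at both times, from 8.44 to 2.64 CPM (counts-per-million) at ZT8 and from 8.73 to 1.92 CPM at ZT20 (edgeR quasi-likelihood test with Benjamini-Hochberg adjustment, adjusted p = 1.56e-05 and 1.98e-07). All 5 cholinergic markers were above the input in all 24 IP libraries, with a summed level of 4180 to 4830 CPM against 577 CPM. The markers of excitatory and inhibitory interneurons, oligodendrocytes, astrocytes and microglia were each below the input in all 24. Skeletal muscle markers varied the most, their summed level running from 1.42 to 85.5 CPM in controls at ZT8, 3.22 to 136 CPM in ChAT-BKO at ZT8, 5.59 to 22.5 CPM in controls at ZT20 and 3.83 to 83.8 CPM in ChAT-BKO at ZT20. Of these 6 muscle genes, 4 were called higher in ChAT-BKO than in controls at ZT20.

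The 10 genes spanned a wide range of levels in cholinergic neurons. Counts were scaled by TMM (trimmed mean of M values) to CPM, and divided by the length of all annotated exons where genes are compared with each other. Isl2, a LIM homeodomain factor of postmitotic motor neurons, had the highest level per kilobase, with 29.9 ± 1.68 CPM per kb (SD, n = 24). Its close relative Isl1 was at 3.00 ± 0.337 CPM per kb, so the 2 Islet genes stood far apart in the adult. Mnx1, also called Hb9, was at 14.3 ± 1.45 CPM per kb. Lmo4, a LIM-only protein that competes for Ldb1, was at 13.4 ± 1.39 CPM per kb. Lhx4 was at 9.62 ± 0.656 CPM per kb. Lhx3, the other factor of neurons to axial muscle, was at 2.40 ± 0.392 CPM per kb.

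Nos1 was at 9.04 ± 0.708 CPM per kb. The genes of limb-innervating and pool identity came last per kilobase. Foxp1 was at 0.981 ± 0.0865, Pou3f1 at 0.559 ± 0.143 and Lhx1 at 0.10 ± 0.0556 CPM per kb. The place of Foxp1 depends on the length taken, since its exon union is 13.8 kb and its median transcript 1351 bases. On mean CPM without length it was above Isl1 and Lhx3. With the longest transcript it was at 1.88 CPM per kb, below Lhx3 at 3.28. Read library by library on the exon union, the order was clear at most steps and not at all of them. These library counts do not cover an error in the length. Isl2 was above Mnx1, Nos1 above Isl1, Lhx3 above Foxp1, Foxp1 above Pou3f1 and Pou3f1 above Lhx1 in 24 of 24 libraries each. Lmo4 was above Lhx4, and Isl1 above Lhx3, in 23 of 24. Mnx1 and Lmo4 did not differ beyond their spread, with Mnx1 higher in 16 of 24 libraries, and neither did Lhx4 and Nos1, with Lhx4 higher in 16 of 24. When the longest transcript replaced the union of exons, Lmo4 rose to 28.4 CPM per kb and stood above Mnx1, at 14.4 CPM per kb, in all 24 libraries.

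On the CPM scale without length, Nos1 was at 101 ± 7.90, Isl2 at 65.6 ± 3.67, Lhx4 at 55.2 ± 3.77, Lmo4 at 47.4 ± 4.89, Mnx1 at 32.2 ± 3.26, Foxp1 at 13.5 ± 1.19, Isl1 at 11.9 ± 1.34 and Lhx3 at 7.30 ± 1.19 CPM (SD, n = 24). Pou3f1, at 2.15 ± 0.552 CPM, and Lhx1, at 0.408 ± 0.227 CPM, were near the limit of the depth. A library's limit, taken as 3 counts, lay between 0.0947 and 0.743 CPM. Lhx1 had 0 to 14 counts in a library, and 1 ChAT-BKO library at ZT8 had 0, which allows a level of up to 0.743 CPM. Pou3f1 had 3 to 88 counts. The plot of levels by library shows all 10 genes.

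In GENCODE M21 (GRCm38) the other protein-coding genes described here lie apart from one another. Isl2 is on chromosome 9 from 55538672 to 55546180, plus strand, and Mnx1 on chromosome 5 from 29473034 to 29478470, minus strand. Nos1 is on chromosome 5 from 117781032 to 117958840, plus strand. Lhx3 is on chromosome 2 from 26200212 to 26208289 and Lhx1 on chromosome 11 from 84518284 to 84525535, both minus strand. Foxp1 is on chromosome 6 from 98925338 to 99522721, minus strand, with 31 annotated transcripts, and Pou3f1 on chromosome 4 from 124656807 to 124660655, plus strand.

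**Figure D1:**
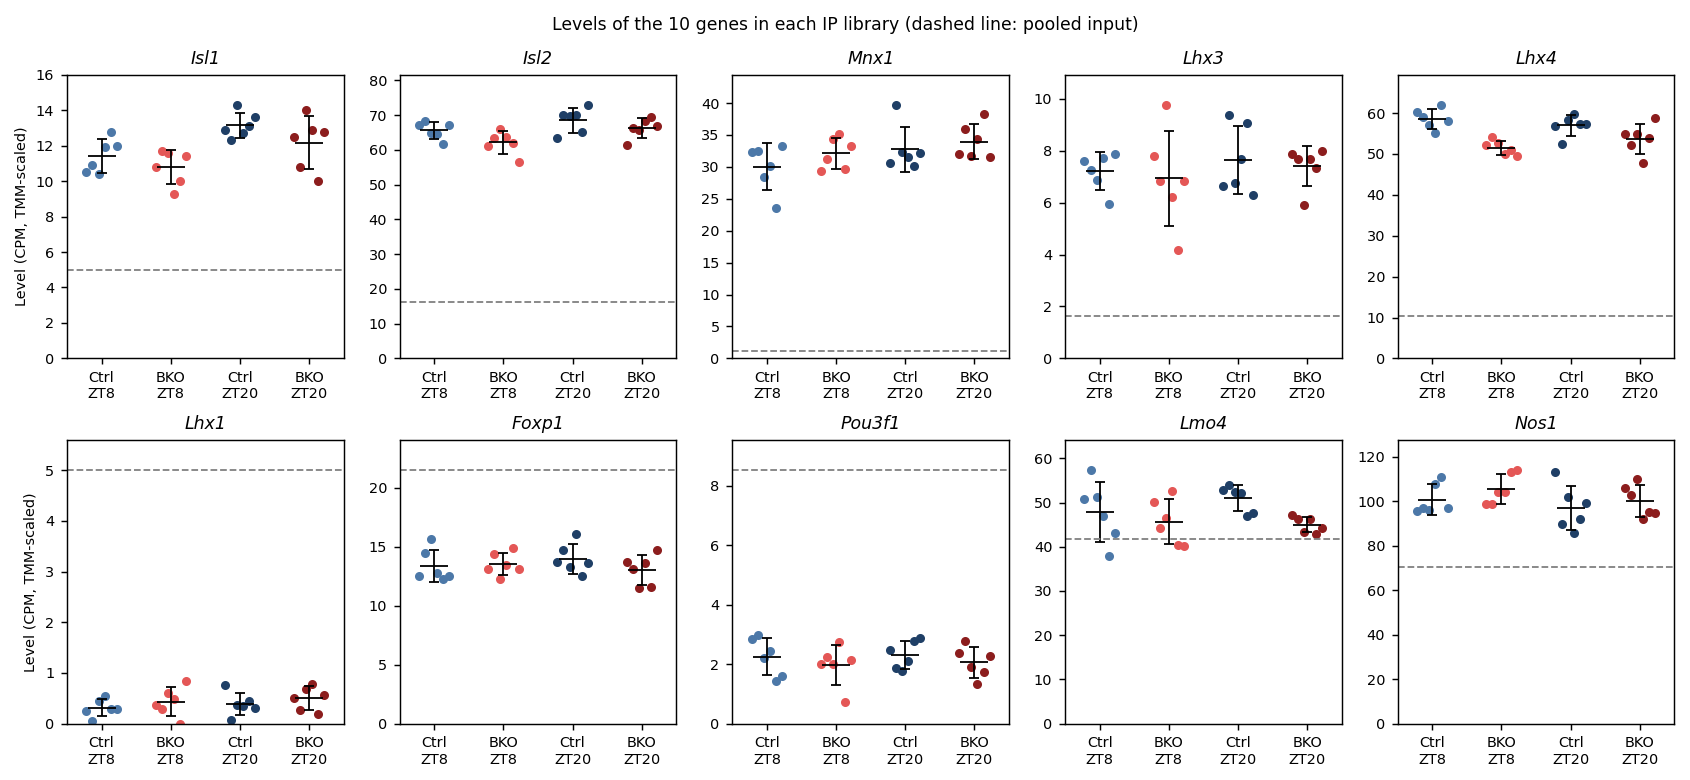
Level of each gene in CPM (vertical axis, TMM-scaled, from 0) in every IP library of the 4 conditions, with 6 points per condition, the mean and the SD as error bar; the dashed line is the single pooled input. Lhx4 in ChAT-BKO at ZT8 lies between 49.4 and 54.1 CPM, below all 6 controls at that time, the single case in which the genotypes do not overlap at a time point.

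Replicate mice were close for the well-expressed genes. The within-condition coefficient of variation was 4.63% for Isl2 and 4.81% for Lhx4, and 7.74% for Nos1. It was 8.99% for Isl1, 9.02% for Foxp1, 9.64% for Lmo4 and 9.69% for Mnx1. The median over the 10428 genes at a mean of 5 CPM or more was 10.6%, so these 7 genes were below it and Lhx3, at 17.1%, was above. Pou3f1 and Lhx1, the genes with the lowest counts, varied by 26.6% and 56.5%.

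Each gene was then compared with the pooled input. Isl1, Isl2, Mnx1, Lhx3, Lhx4 and Nos1 were above the input in all 24 IP libraries, 6 of 10 genes, where 16.5% of all tested genes were. Lhx1, Foxp1 and Pou3f1 were below the input in all 24, 3 of 10, where 44.5% of all tested genes were. Among only 10 genes, that count is near the share of genes at large. Lmo4 was above in 21 libraries and below in 3. The input is 1 library, so the intervals given here cover only the counting error of its reads.

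Mnx1 stood out, at 32.2 CPM in the IP against 1.22 CPM in the input, a ratio of 26.5 with a 95% interval of 14.0 to 57.9 that is wide because the input held 9 counts. Lhx4 was 5.37 times its input level (interval 4.29 to 6.82), Lhx3 4.5 times (2.57 to 8.70, from 12 input counts) and Isl2 4.08 times (3.41 to 4.92). Isl1, which is also used by dorsal interneurons and sensory neurons, was 2.37 times its input (1.72 to 3.37). Nos1 was 1.43 times its input (1.31 to 1.56) and Lmo4 1.13 times (1.01 to 1.27). The counting intervals of Mnx1, Lhx4, Lhx3, Isl2 and Isl1 therefore all lay above that of Nos1. Those of Lhx3, Lhx4 and Isl2 overlapped one another, and that of Isl1 overlapped that of Lhx3.

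Foxp1 was at 0.627 of its input level (interval 0.537 to 0.738) and Pou3f1 at 0.253 (0.197 to 0.329). Lhx1 was 12.2 times lower in the IP than in the input, at 0.408 against 5.00 CPM. Lhx1 is also a gene of dorsal and inhibitory interneurons, and Pou3f1 of glia and Schwann cells. The inhibitory interneuron markers summed to 300 to 420 CPM in the IP and 995 CPM in the input, and the oligodendrocyte markers to 1660 to 2490 CPM against 23300 CPM; their part in these levels was not tested.

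The ratios depend on how IP and input are put on 1 scale. With TMM computed against the input, all ratios rose by 0.475 on the log2 scale, a shift shared by all genes. The 6 genes above the input stayed above it in all 24 libraries, and Lmo4 joined them, at 1.58 times its input; 25.4% of all tested genes were above the input in all 24 under this scaling and 31.2% below it. Foxp1 then stood at 0.872 of its input, below it in 22 libraries and above it in 2, so its direction is not settled in every library. Lhx1 and Pou3f1 were below the input in all 24 under both scalings. The libraries also differed in their length slope, that is, how steeply log2 CPM changed with log2 transcript length. It was 0.0648 in the input and ran from -0.246 to -0.0921 in the 24 IP libraries. Neither scaling corrects for this difference, the counting intervals do not cover it, and its part in the ratios was not tested.

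**Figure D2:**
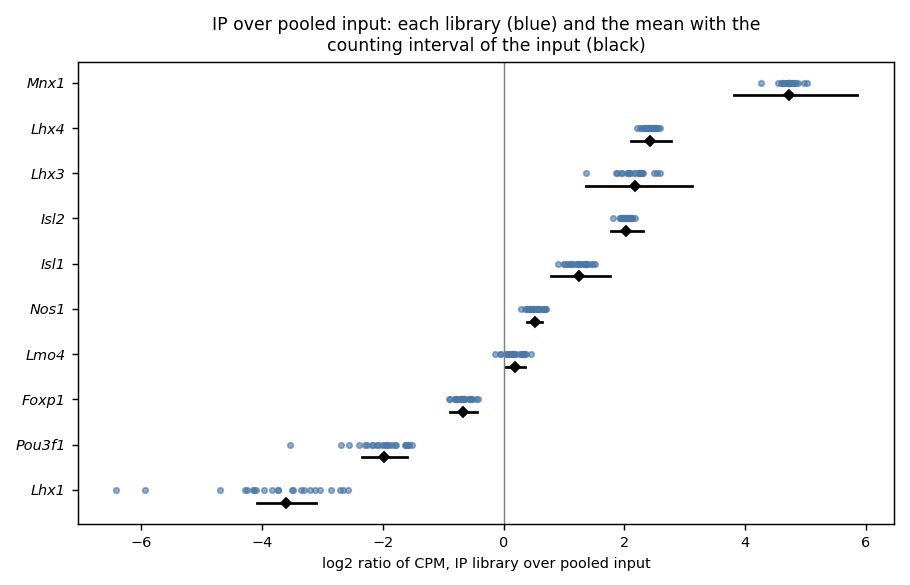
Horizontal axis, log2 ratio of CPM in an IP library to the pooled input; blue points are the 24 IP libraries (the Lhx1 library with 0 counts has no point), and black diamonds and bars are the mean ratio with the 95% interval from the input's counts. Mnx1 lies farthest to the right, at 4.73, and Lhx1 farthest to the left, at -3.61.

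The 10 genes were set beside other factors of the same programme. Of 36 further genes of motor neuron specification (progenitor factors, Ldb and Ssbp cofactors, LIM-only, Onecut, Ets, Pbx, Meis and Ebf genes), 35 could be tested. Ssbp3, a cofactor that binds Ldb1, and Lmo1, both named after their values were seen, were above the input in all 24 libraries and 27 genes were below it. Summed, these 36 genes gave 611 to 663 CPM in the IP and 1200 CPM in the input. The best expressed were Ssbp3 at 139 ± 7.88 CPM, Ldb1 at 88.6 ± 5.54 CPM and Ssbp2 at 57.1 ± 4.20 CPM (SD, n = 24). Ldb1, the adaptor that joins Isl1 to Lhx3, was 1.06 times its input, above it in 19 libraries and below it in 5.

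Among 25 interneuron factors, 23 could be tested, and 19 were below the input in all 24 libraries. Among the best expressed were Pax2, a factor of inhibitory interneurons, at 15.2 CPM and Lbx1, a factor of dorsal interneurons, at 9.90 CPM. Their input levels were 40.2 and 21.4 CPM, and both were below the input in all 24 libraries.

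Nos1 can be read beside markers of the cholinergic classes. The other preganglionic markers, Zeb2 and Fbn2, were at 3.28 and 0.980 CPM and below the input in all 24 libraries. The skeletal motor neuron markers Bcl6 and Tns1 were 3.55 and 5.03 times their input and above it in all 24. Zeb2 is also strongly expressed by glia. Nos1 is made by inhibitory interneurons too, and how much of its level came from each class was not tested.

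Promoter windows bear on the comparison because BMAL1 was the gene removed. RefSeq windows (build GRCm38.p6, 250 bases before to 50 after a start) were found for 9 of the 10 genes, 14 windows in all. Pou3f1 had none. For Lhx4, Nos1, Isl2 and Foxp1 every window lies inside the gene span given in this report. Sequence ahead of the outermost annotated start of these genes was therefore not searched. The E-box CACGTG, a palindrome, was in none of the 14 windows and in 7.15% of all 32851 windows. The related E-prime-box CACGTT, searched on both strands as CACGTT or AACGTG, was in 4.68% of all windows and in those of 1 gene, Lmo4, where 2 overlapping windows hold the same site. The 250 bases ahead of the start are shown for 3 genes, chosen after their values were seen because each passed an unadjusted p of 0.05 in 1 comparison of groups, with the E-prime-box in capitals. Of the 3 Lmo4 windows, the one shown holds the site.
Lmo4, chr3:144202397-144202646, minus strand: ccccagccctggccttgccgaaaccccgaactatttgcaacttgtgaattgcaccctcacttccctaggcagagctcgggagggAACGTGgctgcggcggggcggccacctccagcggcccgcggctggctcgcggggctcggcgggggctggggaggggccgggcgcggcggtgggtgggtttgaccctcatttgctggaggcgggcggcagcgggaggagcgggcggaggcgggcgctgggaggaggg
Lhx4, chr1:155742028-155742277, minus strand: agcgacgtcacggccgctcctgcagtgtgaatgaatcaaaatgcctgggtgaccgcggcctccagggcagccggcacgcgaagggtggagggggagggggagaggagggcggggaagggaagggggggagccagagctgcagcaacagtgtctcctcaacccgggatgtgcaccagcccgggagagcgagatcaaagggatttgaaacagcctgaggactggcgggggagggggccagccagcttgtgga
Isl1, chr13:116309689-116309938, minus strand: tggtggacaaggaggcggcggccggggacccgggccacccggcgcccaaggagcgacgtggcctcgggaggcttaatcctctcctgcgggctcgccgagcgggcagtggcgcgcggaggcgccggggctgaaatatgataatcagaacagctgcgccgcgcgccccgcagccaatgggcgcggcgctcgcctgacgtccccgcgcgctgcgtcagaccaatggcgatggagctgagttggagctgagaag

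A match is a description of these letters and not of binding, and the absence of one says only that the letters are not in these windows.

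In neurons without BMAL1, none of the 10 genes passed the test against controls at either time. At ZT8, 0 of the 10 were called in ChAT-BKO against controls (edgeR quasi-likelihood test, adjusted p under 0.05), where 0.184% of all tested genes were; 1 of the 10 passed an unadjusted p of 0.05, and DESeq2 and limma voom also called 0. At ZT20, 0 of 10 were called, where 0.23% of tested genes were; again 1 passed unadjusted, and DESeq2 and voom called 0. The median of their log2 fold changes was -0.05 for ZT8 and -0.09 for ZT20, beside 0.00013 and -0.01 over all genes.

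For the 8 genes at a mean of 5 CPM or more, the data also bound how large a change could be. At ZT8 their log2 fold changes lay between -0.18 and 0.10, with 5 negative and 3 positive, and no 95% interval reached beyond 0.33 on the log2 scale, 1.26-fold. At ZT20 they lay between -0.18 and 0.04, with 6 negative and 2 positive, and no interval reached beyond 0.34, 1.27-fold. Lhx3, the most variable, set both bounds. Isl1, Isl2, Mnx1, Lhx3, Foxp1 and Nos1 all had intervals that spanned 0 at both times. The intervals of the genes with low counts were wider, from -0.59 to 0.35 at ZT8 and -0.60 to 0.235 at ZT20 for Pou3f1. For Lhx1 they ran from -0.45 to 1.66 and from -0.49 to 1.25.

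Lhx4 came nearest to a difference. Its gene lies on chromosome 1 from 155698031 to 155751684, minus strand (GENCODE M21, GRCm38). At ZT8 the controls had a lowest, median and highest level of 55.2, 58.6 and 62.0 CPM, and ChAT-BKO 49.4, 51.5 and 54.1 CPM. No ChAT-BKO library reached the lowest control (6 of 6 lay below it), the single case among the 10 genes, where 0.57% of all tested genes had groups that did not overlap. The log2 fold change was -0.18 (SE 0.05, 95% interval -0.29 to -0.07), with an unadjusted p of 0.00304 and an adjusted p of 0.534 in edgeR's quasi-likelihood test, so it did not pass. Its adjusted p was 0.177 in DESeq2 and 0.0491 in edgeR with each library's length slope as a covariate, and lay between 0.229 and 0.687 in the other settings and between 0.535 and 1 when 1 library was left out. The length slope is how steeply log2 CPM changed with log2 transcript length in that library.

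At ZT20 Lhx4 ran from 52.4 to 59.8 CPM in controls and from 47.7 to 58.7 CPM in ChAT-BKO. These groups overlapped, with 2 ChAT-BKO libraries below all controls, and the log2 fold change was -0.09 (SE 0.06; edgeR adjusted p = 0.843). The effects at both times did not differ by test, the difference being 0.10 (95% interval -0.05 to 0.24, edgeR unadjusted p = 0.18). None of the 10 genes had non-overlapping groups at ZT20, where 0.506% of tested genes did.

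Lmo4 was the other gene that passed an unadjusted p of 0.05. It lies on chromosome 3 from 144188530 to 144205220, minus strand, and acts by binding Ldb1 and so limiting LIM homeodomain complexes. At ZT20 the controls had 46.9, 52.3 and 53.9 CPM as lowest, median and highest, and ChAT-BKO 42.8, 45.2 and 47.1 CPM. In 5 of 6 ChAT-BKO libraries the level was below all controls. The log2 fold change was -0.18 (SE 0.06; edgeR unadjusted p = 0.00446, adjusted p = 0.411), and was -0.17 (edgeR adjusted p = 0.164) with the length slope as covariate; over the other settings its adjusted p ran from 0.274 to 0.747. At ZT8 controls ran from 38.0 to 57.3 CPM and ChAT-BKO from 40.1 to 52.5 CPM, wholly overlapping, with a log2 fold change of -0.06 (SE 0.09) that was -0.12 without control ZT8 replicate 5 and -0.00314 without control ZT8 replicate 2. The 4 muscle genes called higher in ChAT-BKO at ZT20 moved with this comparison, and their part was not tested.

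A fit of genotype over both time points, added after these values had been seen, used all 24 libraries at once. It called 0 of the 10 genes, where 0.741% of tested genes were called; 2 passed unadjusted, and DESeq2 called 1 and voom 0. Lhx4 had a log2 effect of -0.14 (SE 0.04, 95% interval -0.21 to -0.06) and an adjusted p of 0.0757 in edgeR. The call turned on the settings, since the adjusted p was 0.00911 in DESeq2, 0.0454 with edgeR's own expression filter and 0.00647 with the length slope as covariate. It was also 0.0393 without control ZT20 replicate 2 and 0.0361 without ChAT-BKO ZT20 replicate 6, and was 0.0733 with DESeq2 size factors, 0.079 in voom, 0.118 without a filter and 0.126 with the replicate block. The effect itself moved little, from -0.15 to -0.12 over the 24 fits that each left out 1 library. Lmo4 had -0.12 (SE 0.05, edgeR adjusted p = 0.614). In the same fit 1 of 3 gamma motor neuron markers, Htr1d, was called lower in ChAT-BKO (log2 -0.34, edgeR adjusted p = 0.0231), and its part was not tested. No 95% interval of the 8 genes reached beyond 0.25 on the log2 scale in this fit, 1.19-fold.

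**Figure D3:**
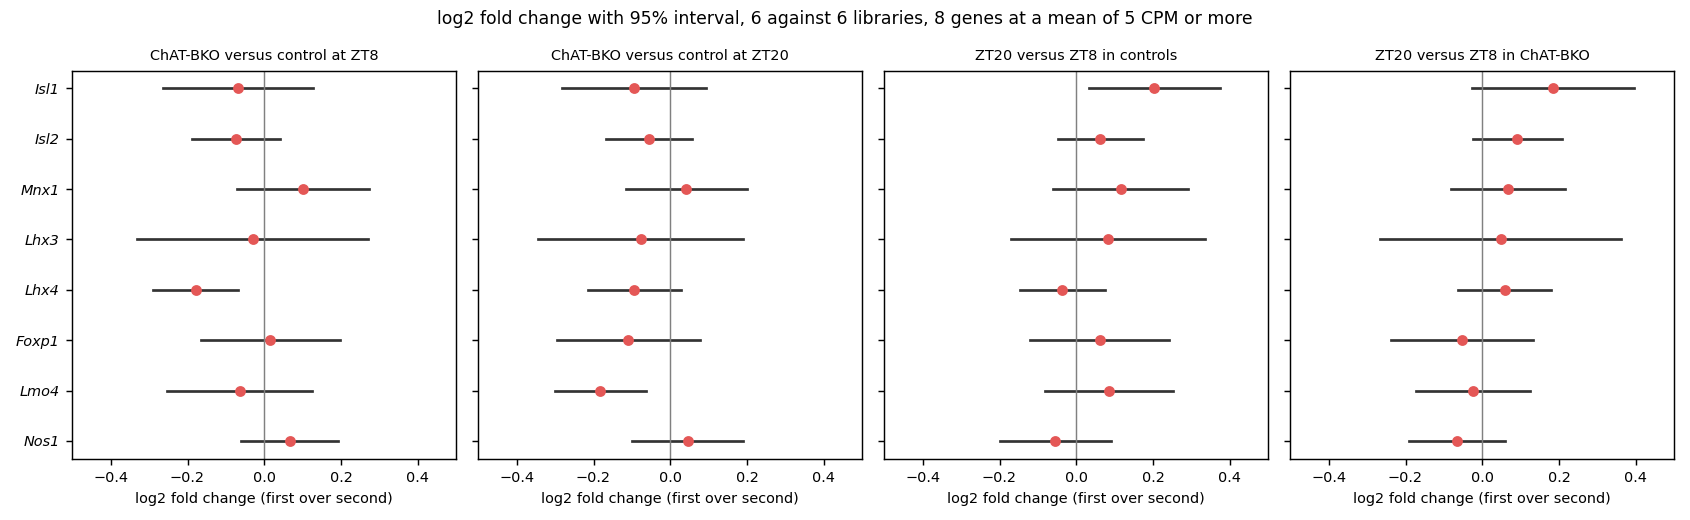
Horizontal axis, log2 fold change of the first over the second group in edgeR's fit, with points for the estimate and bars for the 95% interval, for the 8 genes at 5 CPM or more in the 4 comparisons of 6 against 6 libraries. The intervals of Lhx4 at ZT8, Lmo4 at ZT20 and Isl1 in controls leave out 0, and none of these passed after adjustment.

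Between rest and active phase the levels were also close. In controls, 0 of the 10 genes were called at ZT20 against ZT8, where 0.115% of tested genes were, 1 passed unadjusted, and DESeq2 and voom called 0. In ChAT-BKO, 0 were called where 0.285% were, 0 passed unadjusted, and DESeq2 and voom called 0. None had groups that did not overlap, where 0.938% of tested genes in controls and 1.18% in ChAT-BKO did. The log2 changes of the 8 well-expressed genes lay between -0.05 and 0.20 in controls and between -0.07 and 0.18 in ChAT-BKO, and no 95% interval reached beyond 0.37 and 0.39, 1.3-fold and 1.31-fold, both set by Isl1.

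Isl1, which keeps cholinergic genes on in motor neurons, had the largest of these changes in each genotype. It lies on chromosome 13 from 116298281 to 116309689, minus strand. In controls it had 10.4, 11.4 and 12.8 CPM at ZT8 and 12.3, 13.0 and 14.3 CPM at ZT20 as lowest, median and highest. In ChAT-BKO it had 9.29, 11.1 and 11.7 CPM at ZT8 and 10.0, 12.6 and 14.0 CPM at ZT20. In both genotypes 4 of the 6 ZT20 libraries were above all ZT8 libraries. The log2 change was 0.20 in controls (SE 0.08; edgeR unadjusted p = 0.0225, adjusted p = 0.508) and 0.18 in ChAT-BKO (SE 0.10; adjusted p = 0.618).

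With both genotypes in 1 fit, also added after seeing the values, 0 of the 10 genes were called for time of day, where 2.69% of tested genes were; 2 passed unadjusted, and DESeq2 called 1 and voom 0. Isl1 was 0.19 higher at ZT20 on the log2 scale (SE 0.06, 95% interval 0.07 to 0.31, edgeR adjusted p = 0.0766). The adjusted p of Isl1 was 0.0358 in DESeq2, 0.0444 with edgeR's expression filter, 0.0496 with the length slope as covariate and 0.042 without ChAT-BKO ZT20 replicate 5. It was 0.0852 with DESeq2 size factors, 0.0875 in voom, 0.11 with the replicate block and 0.133 without a filter. In the same fit 1 of 5 endothelial markers, Cldn5, was called higher at ZT20 (log2 0.73, edgeR adjusted p = 0.00167). The summed endothelial level ran from 7.25 to 11.4 CPM in controls and 6.85 to 12.2 CPM in ChAT-BKO at ZT8, and from 9.93 to 18.6 CPM and 10.3 to 14.7 CPM at ZT20; its part was not tested. Among the 35 further programme genes, 2 were called for time of day, Ssbp3 at -0.12 and Ssbp4 at -0.19 (log2; edgeR adjusted p = 0.0269 and 0.0291), both lower at ZT20 and named after their values were seen. None of the 35, nor of the 23 interneuron factors, was called in any of the other comparisons in edgeR.

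The effect of BMAL1 loss could not be told to depend on time for any of the 10. The difference between the effects at ZT20 and at ZT8 was called for 0 of the 10 genes, where 0% of tested genes were. Here 0 of the 10 and 848 of all 21738 genes passed unadjusted, and DESeq2 and voom called 0 genes in all. The intervals of the 8 genes all spanned 0, and their farthest bounds ran from 0.17 for Isl2 to 0.43 for Lhx3 on the log2 scale.

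Within a condition, some pairs of genes varied in the same direction across mice and others in opposite directions. Deviations of log2 CPM from the condition means were compared over the 24 libraries for the 28 pairs among the 8 genes, as a description without test. The highest Pearson r was 0.531, between Isl2 and Mnx1, and Mnx1 was next with Lmo4 at 0.425 and with Lhx3 at 0.417. The lowest were -0.564 for Isl2 and Nos1, -0.563 for Lhx3 and Nos1 and -0.509 for Isl1 and Mnx1. Of the 28 pairs, 12 were positive. The deviations of Nos1 followed the length slope of the library with r = 0.73, those of Isl1 with 0.561 and Lhx4 with 0.336. The r was -0.69 for Lmo4, -0.557 for Mnx1, -0.52 for Isl2, -0.49 for Lhx3 and -0.334 for Foxp1. After that slope was taken out, an alternative added after seeing the data, the range shrank to -0.359 to 0.34 and 13 of the 28 pairs changed sign. Isl2 and Mnx1 kept an r of 0.34. What sets the length slope of a library was not tested.

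**Figure D4:**
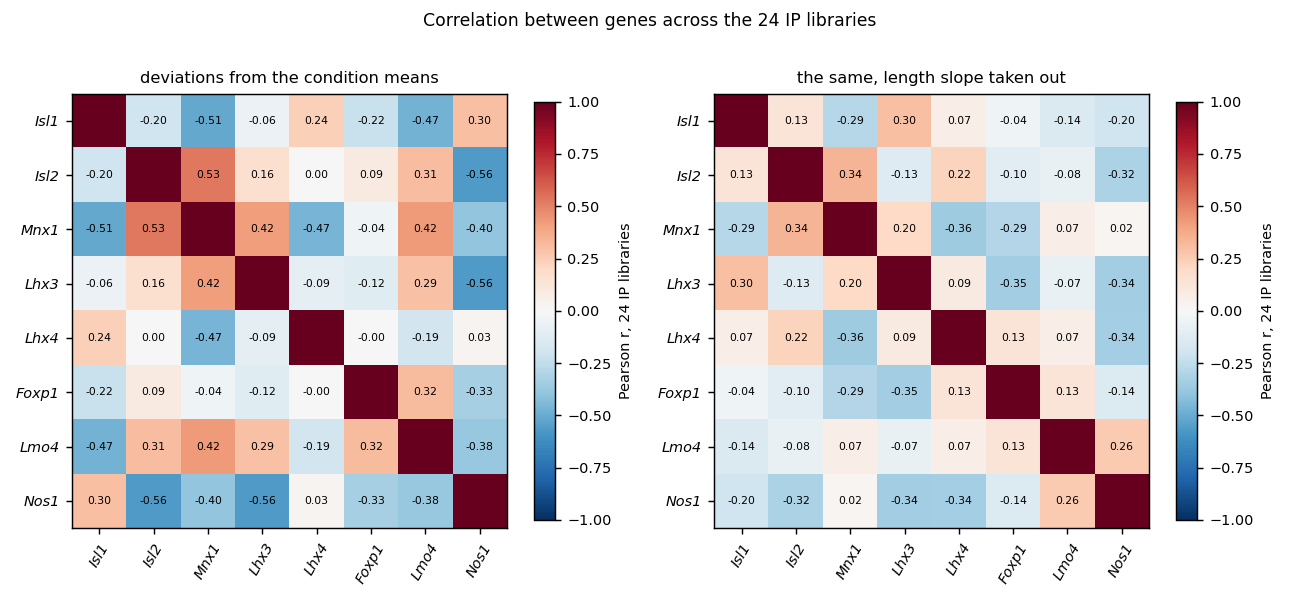
Pearson r between pairs of the 8 genes over the 24 IP libraries, after removal of each condition's mean (left) and with the length slope of the library also taken out (right); red is positive and blue negative, on a scale from -1 to 1. The extremes of 0.531 and -0.564 on the left shrink to 0.34 and -0.359 on the right.

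The gene most like each of the 8 was found among 10427 others at 5 CPM or more by the same measure over the 24 libraries. Isl1 was closest to Per2, a gene of the clock's negative limb, with r = 0.821, then to Tapt1 at 0.797 and Cers6 at 0.791. Mnx1 was closest to Mrap2 at 0.825, Isl2 to Sgf29 at 0.734 and Lhx3 to Ubtd2 at 0.786. Lhx4 was closest to Senp8 at 0.776, Foxp1 to Phf10 at 0.827, Lmo4 to Ctbp1 at 0.899 and Nos1 to Nptx1 at 0.862. The 99th percentile of r over all genes was 0.50 for Foxp1, 0.529 for Lhx4, 0.593 for Isl2 and 0.606 for Lhx3. It was 0.658 for Mnx1, 0.663 for Isl1, 0.739 for Nos1 and 0.807 for Lmo4. The points share library, depth and length slope.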

How the data were processed

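Ribosome-bound mRNA was sequenced as paired 150-bp reads, and the authors aligned them to mm10 with STAR 2.7.5 and quantified genes with RSEM. The values deposited are expected counts per gene, not normalized, of which 6.11% were not whole, and they were rounded here. Groups came from the sample labels, and all 25 columns were used. Genes whose counts over the 24 IP libraries came to 10 or more were tested with edgeR 4.0.16 (TMM, quasi-likelihood F test, two-sided, Benjamini-Hochberg over all 21738 genes, threshold 0.05), each comparison on its own 12 libraries and the difference of effects on all 24. CPM used total counts and TMM factors, with a factor of 1 for the input, and log2 CPM a prior count of 2. Intervals on input counts are exact Poisson and, like the limit of 3 counts, cover counting error only. Exon lengths were from GENCODE M21, matched by symbol for 74.6% of genes and all 10 followed here. The 10 genes were named in every comparison; from the related lists, genes called, or else the 3 with the highest mean CPM, were named, except for items not reported here. Alternatives were DESeq2 1.42.0, limma 3.58.1 voom, size factors, filters, all libraries in 1 fit, a replicate block, the length slope and leaving out each library. The script was tested on simulated counts. Members and lists were chosen with earlier results of these data known.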

Additional observations from a re-analysis of the deposited data

Results flagged for a closer look

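In each condition the highest or lowest of the 6 libraries was compared with its nearest neighbour, for 10 genes in 4 conditions, and 3 of these 40 groups had a gap over range above Dixon's 95% limit. Chance flags about 1 in 20 groups. Mnx1 reached 39.7 CPM in control ZT20 replicate 2, above the other 5 libraries. Lhx3 was at 5.91 CPM in ChAT-BKO ZT20 replicate 3 and Pou3f1 at 0.734 CPM in ChAT-BKO ZT8 replicate 5, each below the other 5 libraries of its condition. The Pou3f1 value rests on 3 counts.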

How the results depend on the processing

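None of the 10 genes was called in the 4 comparisons of groups, or for the difference of effects, under any alternative, except Lhx4 at ZT8 with the length slope as covariate (1 called). For genotype over both times, DESeq2, edgeR's expression filter and the length slope each called 1 gene (Lhx4), and for time of day the same 3 settings called 1 (Isl1). Leaving out 1 library gave 0 to 1 for both, with Lhx4 called without control ZT20 replicate 2 or ChAT-BKO ZT20 replicate 6, and Isl1 without ChAT-BKO ZT20 replicate 5. For the 4 comparisons and the difference of effects, every leave-one-out fit called 0 of the 10. Counts over all genes moved more. DESeq2 called 70 at ZT8 against 40, 93 at ZT20 against 50, 127 in controls against 25, 218 in ChAT-BKO against 62 and 971 for time of day against 585. The length slope gave 154, 162, 422 and 475, then 386 for genotype against 161, 1629 for time of day, and 1 for the difference of effects against 0. All 24 libraries in 1 fit gave 140 for ChAT-BKO between times. Replicate numbers are shared between groups, and same-numbered libraries deviated together in part: 4, 2, 4 and 1 of 6 pairs had r over 0.1 (r from -0.248 to 0.513 at ZT8, -0.183 to 0.321 at ZT20, -0.0671 to 0.584 in controls and -0.359 to 0.342 in ChAT-BKO), and 1 of 6 correlated best with its own number in each. As not every pair passed 0.1, the numbers were not taken to pair the samples. The replicate block gave 69 genes at ZT8 and 86 in controls, and called none of the 10. Leaving out 1 library gave 19 to 42 genes at ZT8 (lowest without ChAT-BKO replicate 3), 29 to 69 at ZT20 (lowest without control replicate 3 or 4), 11 to 28 in controls (lowest without ZT20 replicate 3 or 6), 33 to 56 in ChAT-BKO (lowest without ZT8 replicate 1), 126 to 199 for genotype, 448 to 628 for time of day and 0 to 0 for the difference of effects. In the 4 comparisons of groups, 9, 9, 4 and 9 of 12 such counts stayed within 1.5 times. The cause of these shifts was not tested. Over all settings, member fold changes reversed sign in 8 of 199 values at ZT8 and 0 of 199 at ZT20. They did so in 4 of 199 in controls and 9 of 199 in ChAT-BKO. The counts were 35 of 309 for the difference, 0 of 309 for genotype and 27 of 309 for time of day. No reversal was in the 9 fold changes of Lhx4, Lmo4 and Isl1 given 1 by 1 above. The difference of effects of Lhx4 is not among those 9. Depth limits Pou3f1 and Lhx1.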
